A study of Sus scrofa with 12 samples.

Results

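The CC and XC chemokine ligands CCL1, CCL2, CCL4, CCL8, CCL20, CCL21, CCL26 and XCL1, small secreted proteins that call leukocytes into tissue, were followed in the oxyntic mucosa of piglets at 2 weeks of age, which is the part of the stomach lining that secretes acid. They were taken by gene symbol, each from the brightest array feature that the platform annotation assigns to that symbol alone, and all 8 were found among the 10910 genes measured in this way. Each of the 8 genes had 1 such feature. The group does not hold the whole CC family, since 11 other CC ligands were measured too and are compared with it below. Both groups of piglets came from a (Great York x Pietrain) x 'Dalland' cross, were delivered by caesarean section and fed artificially, and all received a starter of Lactobacillus amylovorus, Clostridium glycolicum and Parabacteroides spp. on days 1 to 3. The 6 CA piglets (complex association) were then inoculated on days 3 to 4 with diluted feces of an adult sow, and the 6 SA piglets (simple association) with a placebo. The sample labels name pasteurized sow colostrum as the first feed of all piglets where the methods of the study name sow serum, and they place the treatments in separate rooms, where the methods place both groups in each pen or room. On the account of the labels, room and treatment cannot be told apart.

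Chemokines bind to receptors on leukocytes and guide these cells along a gradient. The CC ligands carry a pair of adjacent cysteines near the amino end, whereas XCL1, the lymphotactin, lacks one cysteine of that pair. The ligands differ in their source and in the cells they call: CCL2 and CCL8 act mainly on monocytes, CCL4 on macrophages and T cells, CCL20 is made by epithelium in contact with microbes, and CCL21 is made by lymphatic vessels and by the stroma of lymphoid follicles. These roles are known mainly from humans and mice. As the mucosa was measured as a whole, fewer cells of a type and less RNA per cell cannot be told apart.

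Each array gave for every gene an intensity, reported here as log2 intensity, on which a difference of 1 is a 2-fold change. The median log2 intensity of an array lay between 5.81 and 5.85 in the CA piglets and between 5.80 and 5.84 in the SA piglets, and the arrays correlated with each other at 0.977 to 0.994 over all features. The array of CA piglet 4 stood apart on the first principal component (24.6% of the variance). The tissue label was checked on ATP4A and ATP4B, which form the acid pump of parietal cells, and these were brighter than 99.9% and 99.6% of the features. Of 7 measured intestinal markers, 5 lay below the median feature, whereas VIL1 and MUC2 were bright, above 94.7% and 93.3% of the features. The pyloric markers GAST and PDX1 lay above 55.0% and 29.0% of the features. With 6 arrays a group, precision is limited by their number. No batch is labelled for the arrays, and the labels do not say from which litter or pen a piglet came.

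In the CA piglets 6 of the 8 ligands had a lower mean than in the SA piglets, and CCL21 and CCL26 had a higher one. The median log2 fold change of the 8 ligands was -0.16, whereas that of all genes was 0.00625, and 47.3% of all genes lay below and 52.7% above 0. CCL20 had the largest mean difference among the 8 and CCL26 the smallest p-value. After Benjamini-Hochberg adjustment over the 10910 genes, limma called 0 of the 8 ligands (adjusted p = 0.999 for each) and 0% of all genes. At an unadjusted p under 0.05 it gave 2 of the 8, CCL4 on the lower and CCL26 on the higher side, against 3.28% of all genes (1.22% on the lower and 2.06% on the higher side). The groups overlapped for all 8 ligands, and 0.128% of all genes had groups that did not overlap. None of the 8 can therefore be said to have changed between the CA and the SA piglets, and the values below describe how far apart the groups lay.

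**Figure D1:**
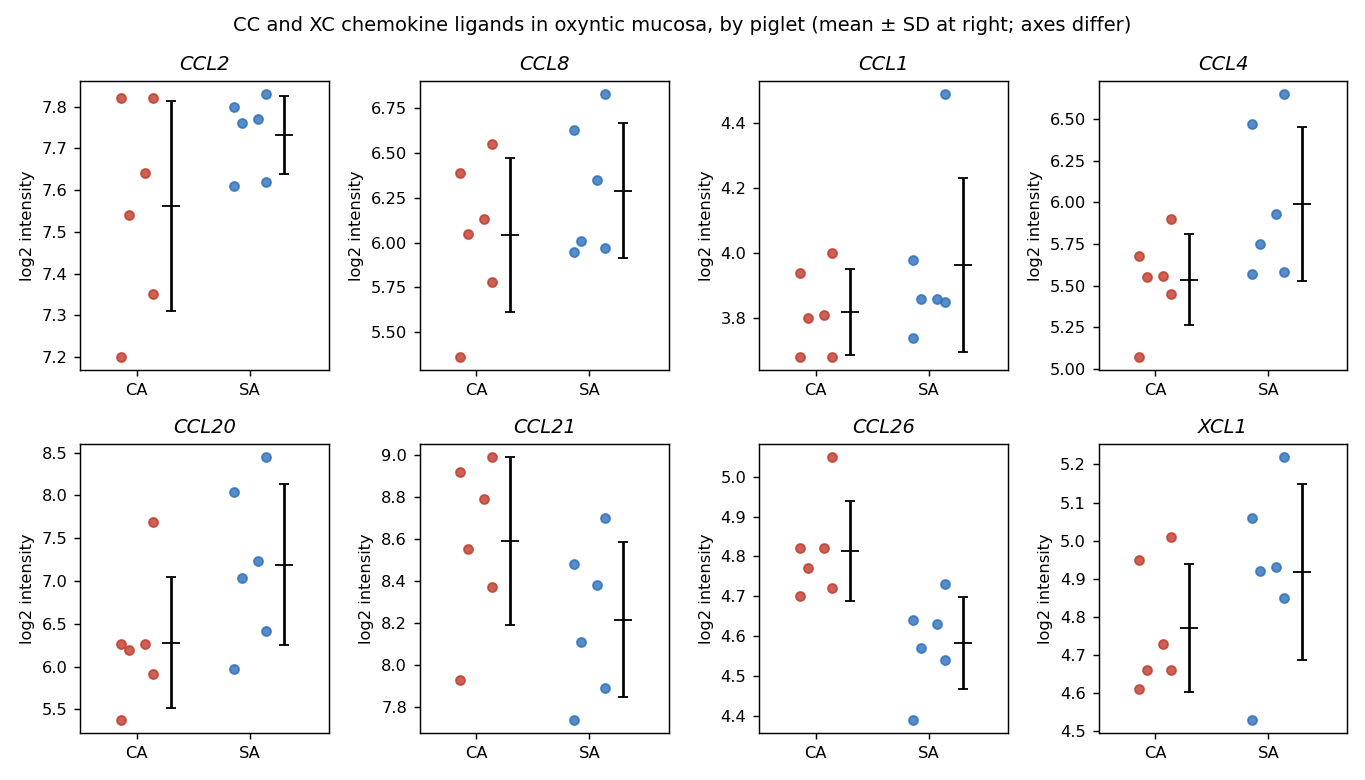
Log2 intensity of each ligand (vertical axes, which differ between panels) in the 6 CA piglets (red, left) and the 6 SA piglets (blue, right), 1 point per piglet, with the group mean and SD as a black bar. The groups overlap in every panel, and CCL26 comes closest to separating them, with 4 CA piglets above the highest SA piglet.

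CCL2 and CCL8 are the monocyte-attracting ligands of the group, with features brighter than 74.9% and 54.7% of those on the array. CCL2 ran from 7.20 over a median of 7.59 to 7.82 in the CA piglets, against 7.61, 7.77 and 7.83 in the SA piglets. The SA piglets thus lay within a narrow band, and 3 of the CA piglets (1, 3 and 5) lay below it while the rest lay inside it. For CCL2 the log2 fold change was -0.17 (standard error 0.10, 95% confidence interval -0.39 to 0.06, n = 6 and 6; two-sided exact permutation p = 0.184). The SD was 0.25 in the CA piglets and 0.09 in the SA piglets. CCL8 ran from 5.36 over 6.09 to 6.55 in the CA piglets and from 5.95 over 6.18 to 6.83 in the SA piglets. CA piglet 1 was the lowest and SA piglet 10 the highest of all. CA piglet 4 also lay below all SA piglets and SA piglet 8 above all CA piglets, and the other piglets of both groups were mixed. The log2 fold change of CCL8 was -0.25 (standard error 0.20, interval -0.69 to 0.19; exact permutation p = 0.314), and without CA piglet 1 it was -0.11.

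CCL4, a product of activated macrophages and T cells, was lower in the mean of the CA piglets, without passing over all genes. It ran from 5.07 over 5.55 to 5.90 in the CA piglets and from 5.57 over 5.84 to 6.65 in the SA piglets. All CA piglets but piglet 3 lay below the SA median, and SA piglets 8 and 10 stood well above all others at 6.47 and 6.65. This gave a log2 fold change of -0.46 (standard error 0.19, interval -0.87 to -0.04, unadjusted p = 0.0339 and adjusted p = 0.999 from limma; exact permutation p = 0.0628), which is 0.728 of the SA level. Leaving out CA piglet 1, CA piglet 5, SA piglet 8 or SA piglet 10 took the unadjusted p of CCL4 above 0.05, and the smallest log2 fold change among these was -0.33, without SA piglet 10. CCL4 lay close to the middle of the array, above 49.1% of the features.

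CCL20, the ligand of CCR6 that epithelial cells release towards dendritic cells and lymphocytes, had the widest range of the 8 ligands. Its lowest, median and highest log2 intensities were 5.38, 6.23 and 7.69 in the CA piglets, as compared to 5.97, 7.13 and 8.45 in the SA piglets. The intensities behind them spanned 8.4-fold, between 41.5 in CA piglet 5 and 349 in SA piglet 12. In the CA piglets CCL20 lay at or below 6.26 in all but piglet 3, which was higher than all but SA piglets 7 and 12. The SA piglets were split in their turn, with piglet 11 at 5.97 and piglet 8 at 6.42 among the CA values. On average CCL20 differed by -0.91 on the log2 scale (standard error 0.43, interval -1.83 to 0.01; unadjusted p = 0.0532 and adjusted p = 0.999 from limma; exact permutation p = 0.0952). It lay between -1.19 without CA piglet 3 and -0.65 without SA piglet 12. The spread within groups of CCL20 (SD 0.858) was larger than that of 99.7% of all genes, whose median was 0.16.

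CCL21, which leads naive T cells and dendritic cells through their receptor CCR7 into lymphatic vessels and lymphoid follicles, had the largest mean difference on the higher side, on a feature brighter than 83.9% of those on the array. It ran from 7.93 over 8.67 to 8.99 in the CA piglets and from 7.74 over 8.24 to 8.70 in the SA piglets. CA piglets 1, 4 and 6 lay above all SA piglets, SA piglets 9 and 10 lay below all CA piglets, and CA piglet 3 lay among the low SA piglets. Its log2 fold change was 0.37 (standard error 0.19, interval -0.05 to 0.79; exact permutation p = 0.119). CCL19, the other ligand of CCR7 and its neighbour on the genome, was at 0.23 (log2 fold change, standard error 0.26, unadjusted p = 0.402 from limma), and CCR7 itself at 0.08 (standard error 0.09). Lymphatic vessel markers did not stand clearly on one side: of 4 measured, 2 lay above and 2 below 0, and their summed intensity was 262 to 321 in the CA piglets and 225 to 331 in the SA piglets. Among them PROX1, the transcription factor of lymphatic endothelium, was at 0.18 (standard error 0.10), and FLT4, the receptor of lymphatic growth factors, at 0.08 (standard error 0.10), while PDPN, a surface protein of lymphatic endothelium, was at -0.08 (standard error 0.20) and RELN, an extracellular matrix protein, at -0.01 (standard error 0.17). Their part in the level of CCL21 was not tested.

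CCL26, known in humans as an eotaxin that calls eosinophils through CCR3, was the ligand whose groups lay farthest apart relative to their spread, at a low level. Its lowest, median and highest log2 intensities were 4.70, 4.79 and 5.05 in the CA piglets and 4.39, 4.60 and 4.73 in the SA piglets. Each CA piglet lay above the SA median, 4 of the 6 lay above the highest SA piglet, and 5 of the 6 SA piglets lay below the lowest CA piglet. Its log2 fold change was 0.23 (standard error 0.07, interval 0.07 to 0.39; unadjusted p = 0.00885 and adjusted p = 0.999 from limma; exact permutation p = 0.00649), a ratio of 1.17. With any 1 piglet left out it lay between 0.18 and 0.26, and its highest unadjusted p from limma was 0.0227. CA piglet 4, whose array stood apart from the others, was the highest, and the value without it was 0.18. The feature was dim, above 33.3% of the features only, and an array without detection calls does not tell such a level from background. CCL24, another eotaxin and the genomic neighbour of CCL26, was at 0.01 (log2 fold change, standard error 0.10), and CCL11, the eotaxin beside CCL2 on the genome, at 0.07 (standard error 0.30). Of 5 measured mast cell and eosinophil markers, 5 had a log2 fold change above 0 (52.7% of all genes) and 0 an unadjusted p under 0.05 from limma (3.28% of all genes). Their summed intensity was 463 to 711 in the CA piglets and 412 to 633 in the SA piglets. KIT and HDC were the brightest of them and made up most of this sum. HDC was highest in SA piglet 9, at 8.11, the piglet in which the summed markers of the oxyntic glands were highest too. Whether KIT and HDC stood for mast cells here was not tested, so the sum is no measure of eosinophils. EPX, the peroxidase of eosinophils, was at 0.01 (standard error 0.08) and IL5RA at 0.06 (standard error 0.06), above 16.6% and 11.2% of the features only. KIT was at 0.03 (standard error 0.16), MS4A2 at 0.10 (standard error 0.15) and HDC at 0.42 (standard error 0.26).

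CCL1, a product of activated T cells that acts on CCR8, and XCL1, which T and NK cells release towards dendritic cells bearing XCR1, were dim as well, above 20.1% and 35.7% of the features. CCL1 ran from 3.68 over 3.80 to 4.00 in the CA piglets and from 3.74 over 3.86 to 4.49 in the SA piglets. Apart from SA piglet 12, at 4.49, the groups lay side by side. The log2 fold change of CCL1 was -0.15 (standard error 0.11, interval -0.39 to 0.10; exact permutation p = 0.279), and without SA piglet 12 it was -0.04. XCL1 ran from 4.61 over 4.69 to 5.01 in the CA piglets and from 4.53 over 4.93 to 5.22 in the SA piglets. In 4 of the CA piglets XCL1 lay between 4.61 and 4.73, and piglets 3 and 4 lay among the upper SA values. The log2 fold change of XCL1 was -0.15 (standard error 0.11, interval -0.38 to 0.09; exact permutation p = 0.225). XCR1, its receptor, was at -0.14 (log2 fold change, standard error 0.08, unadjusted p = 0.109 from limma).

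**Figure D2:**
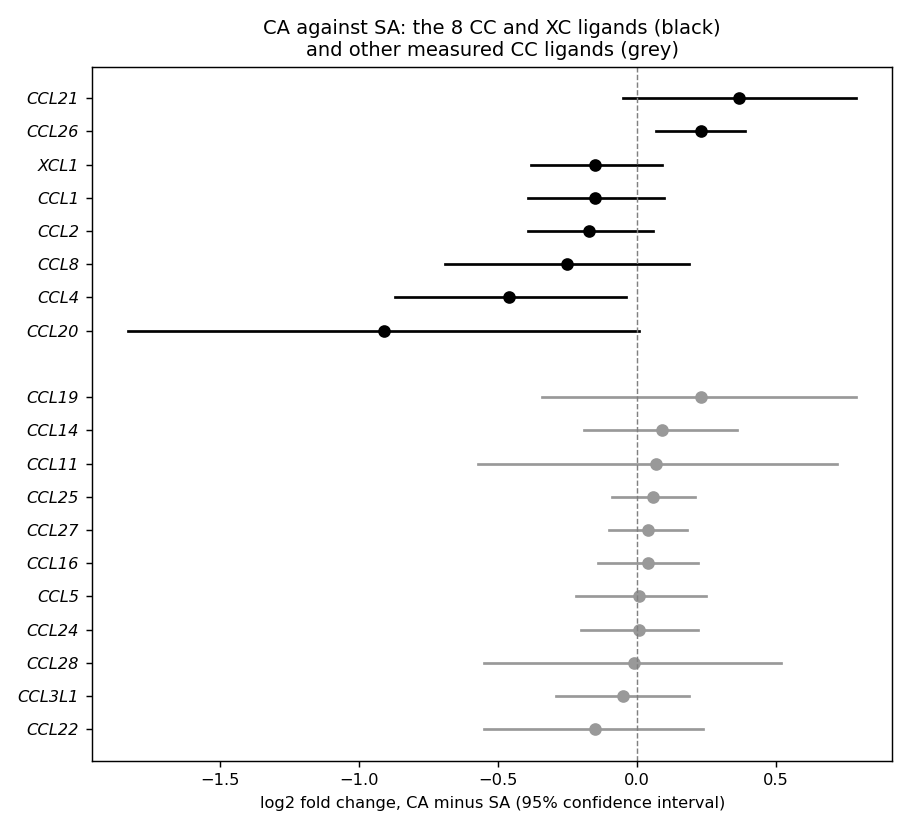
Log2 fold change between the CA and the SA piglets (horizontal axis, CA minus SA) with its 95% confidence interval for the 8 ligands (black, above) and the 11 other measured CC ligands (grey, below). The intervals of CCL4 (-0.87 to -0.04) and CCL26 (0.07 to 0.39) leave out 0 before adjustment, and those of the 11 other ligands all hold 0.

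The 11 other CC ligands lay nearer to 0 than CCL20, CCL4 and CCL21 did. The ligands followed here were chosen with earlier results of these data known, so this contrast is a description and not a test. Of these 11, 8 had a log2 fold change above 0 and 3 below 0, with a median of 0.04, and limma gave 0 at an unadjusted p under 0.05 against 3.28% of all genes. CCL19 and CCL22, a ligand of CCR4 made by dendritic cells, had the smallest p-values of this list, with log2 fold changes of 0.23 and -0.15 (standard errors 0.26 and 0.18). Of the ligands with a genomic neighbour in the family, CCL4 was at -0.46 and the adjacent CCL3L1 at -0.05 (standard error 0.11), and CCL8 was at -0.25 and the adjacent CCL11 at 0.07 and CCL1 at -0.15. CCL2 was at -0.17 beside CCL11, CCL21 at 0.37 beside CCL19 at 0.23, and CCL26 at 0.23 beside CCL24 at 0.01. The differences between neighbours were not tested. Close relatives such as CCL2, CCL8 and CCL11 are alike in sequence, and whether their features bind each other's RNA was not tested.

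Of the receptors of CC, XC and CX3C ligands and the atypical receptors that take up chemokines, 8 of 17 listed were measured. Of these, 6 were above 0 (52.7% of all genes) and 2 below 0. Limma gave 0 of the 8 at an unadjusted p under 0.05, against 3.28% of all genes. The same 3.28% stands against the counts of 0 given below for inducers, type 2 genes and signaling genes. ACKR1, an atypical receptor on the endothelium of venules, had the smallest p-value and was at 0.25 on the log2 scale (standard error 0.13, unadjusted p = 0.0664). Among the measured receptors were CCR7 and XCR1, while CCR1, CCR2, CCR3, CCR6 and CCR8 were not analysed here. Signals that induce chemokines were measured as well. Of 22 genes of NF-kB signaling and inflammatory cytokines, 14 were below 0 (47.3% of all genes), with 0 at an unadjusted p under 0.05. TNF, a main inducer of CCL2 and CCL20, was at -0.26 (standard error 0.15) and SELP, the P-selectin of activated endothelium, at 0.17 (standard error 0.09). Of 12 genes of type 2 immunity, which induces CCL26 in human epithelium, 8 were above 0 (52.7% of all genes), with 0 at an unadjusted p under 0.05. IL5, the growth factor of eosinophils, was at 0.14 (standard error 0.08) and IL13RA2, a decoy receptor of interleukin 13, at 0.10 (standard error 0.08). Of 10 genes of signaling behind chemokine receptors, 5 were above and 5 below 0, with 0 at an unadjusted p under 0.05. PTK2B, a kinase of cell migration, was at 0.15 (standard error 0.08), and ARRB1, an arrestin that desensitizes receptors, at 0.17 (standard error 0.10).

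Of 9 measured ligands of the CXC branch of the family limma gave 2 at an unadjusted p under 0.05, both on the lower side (1.22% of all genes). CXCL9, which is induced by interferon gamma and calls T cells, was at -1.58 (log2 fold change, standard error 0.44; exact permutation p = 0.0195), and CXCL11, induced in the same way, at -1.02 (standard error 0.46; exact permutation p = 0.102), at an adjusted p of 0.999 from limma for each. CXCL9 reached 7.35 in SA piglet 8 and 7.38 in SA piglet 10, the 2 piglets in which CCL4 was also highest, and its highest value in a CA piglet was 5.09.

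Markers of the leukocytes that these ligands call were measured on the same arrays. Of 14 measured markers of monocytes and macrophages, 11 were below 0 (47.3% of all genes), with a median log2 fold change of -0.05. Their summed intensity was 1263 to 2025 in the CA piglets and 1683 to 2175 in the SA piglets, lowest in CA piglet 1, where CCL4 and CCL8 were also lowest. CD14, which helps to sense bacterial lipopolysaccharide, was the 1 gene of this list at an unadjusted p under 0.05 (3.28% of all genes), on the higher side at 0.15 (standard error 0.06), and C1QC, a complement subunit made by macrophages, was at -0.25 (standard error 0.16). Of 17 markers of T and NK cells, 10 were below 0 (47.3% of all genes) and 7 above 0, with a summed intensity of 780 to 898 in the CA piglets and 753 to 936 in the SA piglets. At an unadjusted p under 0.05 there was 1 (3.28% of all genes). It was LCK, a kinase that starts signaling in T cells, at -0.22 (standard error 0.06, unadjusted p = 0.00441 and adjusted p = 0.999 from limma). KLRB1 had the next smallest p and lay on the other side, at 0.18 (standard error 0.09, unadjusted p = 0.0574 from limma). Of 5 measured dendritic cell markers, 4 had a log2 fold change below 0 (47.3% of all genes), and 4 were dimmer than the median feature. They summed to 131 to 176 in the CA piglets and 146 to 172 in the SA piglets. Of 11 listed B and plasma cell markers 3 were measured, without JCHAIN, and these 3 were below 0 (47.3% of all genes). They summed to 939 to 1141 in the CA piglets and 1001 to 1215 in the SA piglets. Neither list had a gene at an unadjusted p under 0.05 (3.28% of all genes). Of 9 measured markers of the oxyntic glands, 9 were above 0, against 52.7% of all genes. On the higher side 4 of them had a limma p under 0.05 before adjustment, against 2.06% of all genes, and 0 passed after it (adjusted p = 0.999 for each of the 4). These were ATP4A at 0.22 (standard error 0.09), ATP4B at 0.25 (standard error 0.11), and the potassium channel genes KCNE2 at 0.83 (standard error 0.27) and KCNJ15 at 0.62 (standard error 0.27). The 9 markers summed to 11228 to 16242 in the CA piglets and 10118 to 16594 in the SA piglets, with SA piglet 9 highest of all and SA piglets 7, 10 and 11 and CA piglet 3 lowest. The part of these cell types in the levels of the 8 ligands was not tested.

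**Figure D3:**
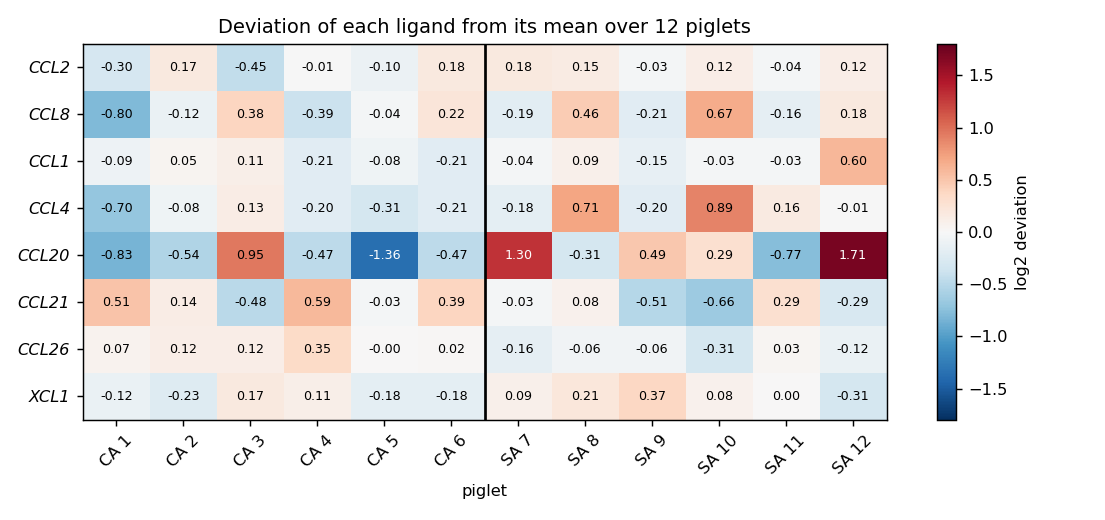
Deviation of each ligand (rows) from its own mean over the 12 piglets on the log2 scale, with the CA piglets in the left and the SA piglets in the right columns. CCL20 spans -1.36 in CA piglet 5 to 1.71 in SA piglet 12, whereas CCL26 stays between -0.31 and 0.35.

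The 8 ligands did not form one pattern over the piglets. In CA piglet 5 all 8 lay below their own mean over the 12 piglets, but several only just (CCL26 at -0.00, CCL21 at -0.03 and CCL8 at -0.04, median deviation -0.09). In CA piglet 1 and SA piglet 9, 6 of 8 lay below their own mean, while in CA piglet 3 and in SA piglet 8, 6 of 8 lay above it. CCL4, CCL8, CCL20 and CCL21 varied more within groups than 95% of all genes (95.4, 96.3, 99.7 and 95.5%), whereas the within-group SD of CCL26 (0.122) exceeded that of 27.5% of all genes. Correlations between the ligands were computed for 28 pairs over the 12 piglets. They lay between -0.62 (CCL8 and CCL21) and 0.84 (CCL4 and CCL8). After Benjamini-Hochberg adjustment over the 28 pairs, 1 pair passed, which was CCL4 with CCL8 (Pearson r = 0.84, permutation p = 0.0006, adjusted p = 0.0168; Spearman rho = 0.65, permutation p = 0.0251, adjusted p = 0.307). It was 0.84 also with values centred on the mean of their own group, and 0.84 within the CA and 0.92 within the SA piglets. Without the 2 piglets farthest from the median of CCL4, r was 0.72 (permutation p = 0.0228, adjusted p = 0.223) and the pair did not pass. With fewer piglets and a narrower range of CCL4 the test is weaker. It cannot tell whether the adjusted call rests on those 2 piglets. Unadjusted, 4 further pairs had a permutation p under 0.05 for Pearson r without passing. CCL21 went with CCL26 (r = 0.65, permutation p = 0.0191, adjusted p = 0.213; rho = 0.62, permutation p = 0.0340, adjusted p = 0.307) and CCL1 with CCL20 (r = 0.60, permutation p = 0.0300, adjusted p = 0.213; rho = 0.43, permutation p = 0.169, adjusted p = 0.411). CCL21 ran against CCL20 (r = -0.61, permutation p = 0.0381, adjusted p = 0.213; rho = -0.57, permutation p = 0.0553, adjusted p = 0.310) and against CCL8 (r = -0.62, permutation p = 0.0312, adjusted p = 0.213; rho = -0.51, permutation p = 0.0936, adjusted p = 0.375). With values centred on the group means, r was 0.50 for CCL21 with CCL26, 0.52 for CCL1 with CCL20, -0.49 for CCL20 with CCL21 and -0.56 for CCL8 with CCL21 (permutation p = 0.0598 for the last, the lowest of the 4). Without the 2 piglets farthest from the median of the first-named gene, these were 0.26, 0.22, -0.71 and -0.32, so that 3 of the 4 were weaker. CCL2 and CCL8, which share their monocyte targets, were at 0.27 (permutation p = 0.396, adjusted p = 0.555; rho = 0.19, permutation p = 0.557, adjusted p = 0.709).

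**Figure D4:**
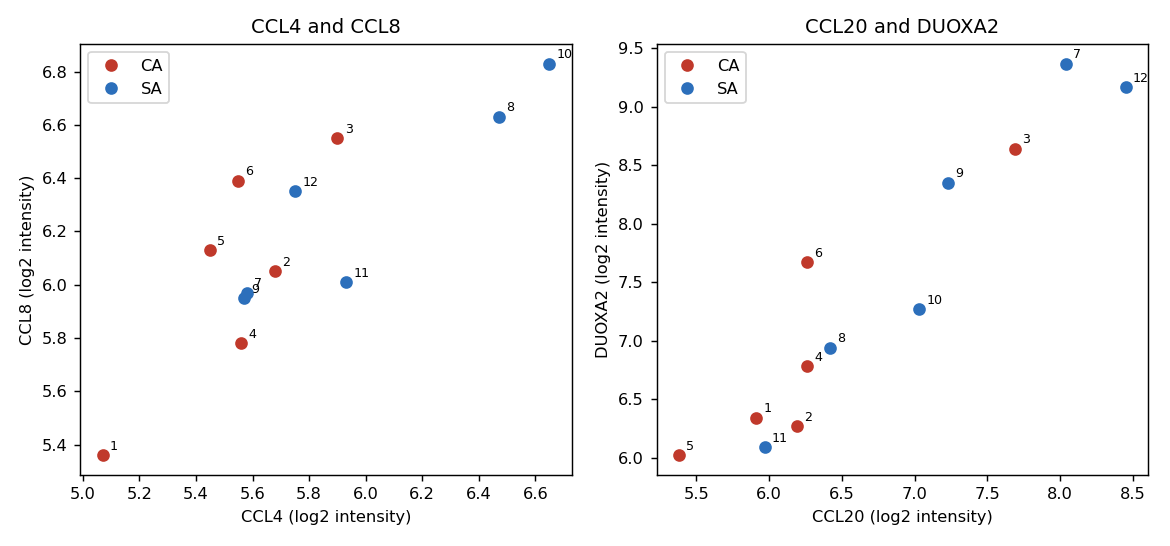
Left, log2 intensity of CCL8 against that of CCL4, and right, that of DUOXA2 against that of CCL20, for each piglet (CA red, SA blue, pig numbers beside the points). CCL4 and CCL8 are lowest together in CA piglet 1 and highest together in SA piglets 8 and 10, and CCL20 and DUOXA2 are highest in SA piglets 7 and 12.

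The genes most like each ligand over the 12 piglets were sought among the genes brighter than the median gene, as a description with no test, since the best of 5455 candidates is high by choice. CCL20 was most like DUOXA2, which matures the hydrogen peroxide-producing dual oxidase of epithelium (Pearson r = 0.94, Spearman rho = 0.95 and r = 0.90 without the 2 piglets of most extreme CCL20). DUOXA2 ran from 6.02 over 6.56 to 8.64 in the CA piglets and from 6.09 over 7.81 to 9.37 in the SA piglets, and CA piglet 3 was again the highest of its group. SORD, the sorbitol dehydrogenase, came next to DUOXA2 for CCL20 (r = 0.91, rho = 0.90). CCL4 was most like EMP1, an epithelial membrane protein (r = 0.89, rho = 0.88), and PSMB9, a subunit of the immunoproteasome (r = 0.88, rho = 0.76, and 0.53 without the extreme piglets). PSMB9 was highest in SA piglets 8 and 10, at 7.28 and 7.30. CCL8 was most like IFI30, a thiol reductase of antigen processing induced by interferon gamma (r = 0.91, rho = 0.73), and BCCIP, a partner of BRCA2 and of CDKN1A (r = 0.89, rho = 0.88). For CCL2 the genes were APOBEC1, an RNA-editing enzyme (r = 0.85, rho = 0.68), and MAFK, a small MAF transcription factor (r = 0.84, rho = 0.77). For CCL21 they were ZNF521, a zinc finger protein (r = 0.91, rho = 0.94), and PHC1, of the Polycomb group (r = 0.86, rho = 0.89). The dim ligand CCL1 gave CSNK2A2 (r = 0.86 but rho = 0.41) and EMP2 (r = 0.85, rho = 0.87). CCL26 gave MEGF9 (r = 0.84, rho = 0.86) and FOXF2 (r = 0.81, rho = 0.79). XCL1 gave NIP7 (r = 0.87, rho = 0.82) and ALDH6A1 (r = 0.85, rho = 0.87). Without the 2 piglets of most extreme ligand level, r was 0.55 for APOBEC1, 0.66 for MAFK, 0.44 for CSNK2A2 and 0.58 for FOXF2. Apart from these, DUOXA2 and PSMB9, it lay between 0.71 (BCCIP) and 0.91 (NIP7).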

How the data were processed

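Total RNA of 12 piglets was hybridized on Affymetrix porcine gene array strips, 1 array per piglet. Robust Multichip Analysis was run by the authors, who deposited linear intensities that are background-corrected, quantile-normalized and summarized. Log2 was taken here. Of 27558 features, 11982 had 1 gene symbol, 373 several and 15203 were unnamed here; 0 symbols were updated through the gene identifier and 2 features took a current symbol for an older one. For 970 genes with several features the brightest was used. The number of unused columns of sample values is 0. The CA and SA piglets were compared over 10910 genes with limma 3.58.1 (lmFit, eBayes; R 4.3.3), with Benjamini-Hochberg adjustment, no filter and no covariate. The script was tested on simulated data. Exact permutation tests ran over the 924 splits of the piglets (smallest possible p 0.00216), and correlations over 100000 permutations, run with Python 3.11.15 (scipy 1.17.1, numpy 2.4.6, pandas 2.3.3; figures in matplotlib 3.10.9). Arrays carry no read depth. The members, lists and tests were chosen with earlier results of these data known. Named genes were the 8 ligands, the measured receptors of these, the genes of the ligand, receptor, inducer and signaling lists at an unadjusted p under 0.05 or otherwise the 2 with the smallest p, and the 2 most similar genes per ligand; cell type markers and genomic neighbours named in the text were chosen after their values were seen. Neighbours on the genome were taken from the order of RefSeq genes in Sscrofa11.1; no build is stated for the array features in the sources used here. Sequences of the ligands were not used here. Alternatives were a second quantile normalization, median centring, the mean over a gene's features, leaving out dim features, an intensity trend, array weights, linear values and each piglet left out in turn.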

Additional observations from a re-analysis of the deposited data

Results flagged for a closer look

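In 4 of the 66 groups of 6 piglets examined, 1 piglet lay apart from the others by a gap larger, relative to the range of its group, than Dixon's critical value, which chance gives in about 1 of 20 groups. CCL1 was at 4.49 in SA piglet 12, while the other SA piglets lay between 3.74 and 3.98. CCL26 was at 5.05 in CA piglet 4, while the other CA piglets lay between 4.70 and 4.82. ATP4A was at 11.82 in CA piglet 3, while the other CA piglets lay between 12.14 and 12.22. KCNE2, a potassium channel gene of the oxyntic glands, was at 8.29 in the same piglet, while the other CA piglets lay between 9.14 and 9.53.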

How the results depend on the processing

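The methods of the study balanced litters over the groups. No analysis paired or blocked by litter was possible, because the labels do not give the litter of each piglet. All 8 ligands kept the direction of their log2 fold change in the 140 values obtained under the alternatives. These values are not independent, since those with 1 piglet left out share most of their arrays. The intensity trend, and the mean over features for ligands with 1 feature, could not change the log2 fold change. No ligand passed after adjustment over all genes (lowest adjusted p = 0.655 from limma). With 1 piglet left out, the log2 fold change lay between -0.19 and -0.04 for CCL1, -0.22 and -0.10 for CCL2, -0.54 and -0.33 for CCL4, -0.35 and -0.11 for CCL8, -1.19 and -0.65 for CCL20, 0.28 and 0.51 for CCL21, 0.18 and 0.26 for CCL26 and -0.22 and -0.09 for XCL1. The number of ligands at an unadjusted p under 0.05 was 2, and 1 to 4 with 1 piglet left out: 4 without CA piglet 3 or SA piglet 11, which added CCL20 and CCL21, and 1 without CA piglet 1, CA piglet 5 or SA piglet 10, which left CCL26. It was 3 with an intensity trend and with array weights, which added CCL20, and 3 without SA piglet 12, which added XCL1, while without SA piglet 8 CCL20 took the place of CCL4. The number was 0 without dim features, a filter that left 6273 genes and took out 4 of the 8 ligands (CCL1, CCL4, CCL26 and XCL1). Over all genes the number was 358, against 193 without dim features, 699 with array weights and 243 to 672 with 1 piglet left out, highest without SA piglet 9. The count after adjustment was 0 throughout. Of the 28 correlations 0 passed without the 2 extreme piglets. The filter also left fewer genes to count, and the cause of these differences was not tested. Dim features, for which signal over background is low, limit what can be said of CCL1, CCL26 and XCL1.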
